A study of Homo sapiens with 9 samples.

Results

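Expression of the WNT pathway was examined in a metastatic breast cancer model, across 61 of the 58884 genes counted. The genes were chosen by symbol, with earlier results of these data known. They comprise 19 WNT ligands, 10 frizzled receptors, 5 co-receptors, 9 secreted inhibitors of the DKK, SFRP and WIF1 families, 9 genes of the R-spondin module, 5 intracellular genes and 4 TCF/LEF transcription factors.

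WNT proteins are secreted, lipid-modified ligands that bind frizzled receptors at the cell surface. Together with the co-receptors LRP5 and LRP6 they stop a cytoplasmic complex built on AXIN from destroying beta-catenin, which then acts with TCF/LEF factors on target genes. Other ligands, of which WNT5A is the best known, signal through ROR and RYK receptors to the cytoskeleton and to calcium. Outside the cell, DKK1 and the SFRP family hold the pathway back, and R-spondins with their LGR receptors protect frizzled proteins from the membrane ubiquitin ligases RNF43 and ZNRF3.

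The lines were MDA-MB-231 (Par), an established claudin-low human breast cancer line, and its sub-populations LM2 and BrM2, which had been selected in vivo for growth in lung and in brain. All were cultured as monolayers in DMEM with FBS, so the RNA is that of cells in a dish and not of metastases, and each sub-population stands for 1 selected line. For each line, 3 cultures taken at different passages were sequenced, which gives 9 libraries. The p-values of the main fit therefore rest on the spread between passages of a line, which includes the pattern shared by replicate number described below.

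Counts on genes totalled 14371858 to 24511786 per library, the lowest being BrM2 replicate 1. CPM is the count scaled by the normalised size of its library. The 4 mesenchymal markers VIM, CD44, ZEB1 and FN1 summed to between 2090 and 2490 CPM in Par. Their sum lay between 3230 and 3880 CPM in LM2 and between 2240 and 2940 CPM in BrM2. In Par, LM2 and BrM2, VIM averaged 725, 1540 and 1500 CPM and CD44 611, 719 and 753 CPM. FN1 averaged 886, 1130 and 290 CPM and ZEB1 73.8, 92.3 and 60.5 CPM, both lowest in BrM2. The endothelial marker PECAM1 lay between 2.08 and 7.19 CPM and the leukocyte marker CD14 between 0.927 and 4.57 CPM. CDH5 and PTPRC, from the same 2 lists, had at most 4 and 6 counts. The lung epithelial markers SFTPC and SFTPB and the neural markers AQP4 and RBFOX3 had at most 3 counts in every library, while the astrocyte marker GFAP lay between 5.52 and 21.3 CPM, with means of 13.5 CPM in Par, 13 CPM in LM2 and 7.08 CPM in BrM2. The 8 epithelial markers summed to between 103 and 145 CPM in Par, 21.8 and 28 CPM in LM2, and 35 and 71.1 CPM in BrM2. CLDN4 alone averaged 95.3, 5.84 and 20 CPM of these sums, and CLDN7, ESR1 and PGR had higher means in BrM2 than in Par. The part of any of these markers in the WNT results was not tested. Replicate 1 of each line stood apart from replicates 2 and 3, in the same way in all 3 lines. Deviations of same-numbered libraries from the mean of their line correlated at 0.23 to 0.90 over all genes tested. Replicates 2 and 3 of different lines also correlated under unlike numbers, at 0.389 to 0.801, so their pairing by number is not shown. A fit with the replicate number as a block is given beside each result whose call it changes.

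Of the 61 genes, 10 had no count in any library, 8 had at most 3 counts in every library, and 33 passed the filter on low counts, which asks for a normalised count above 47.15 in at least 1 library. Closest to that limit were WNT10B and WNT2B inside it, with highest normalised counts of 63.2 and 69.5, and SFRP1 and WNT1 outside it, at 23.5 and 7.81. Of the 33 genes, 27 passed through libraries of every line. LGR6 passed through LM2 alone, WNT5A through BrM2 alone and WNT2B through Par alone. RNF43 passed through Par and BrM2, and TCF7L1 and WNT10B through LM2 and BrM2. The 33 genes are therefore not a neutral sample of the 61, and the 61 were chosen with earlier results known. Counts over them, and shares set beside those of all genes, are descriptions and no test of an excess.

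The lines differed in the levels of some of the 33 genes. Taken over the 3 comparisons, every class held a gene that passed, but not in each comparison, and the 33 had no common direction. In LM2 against Par, 10 of the 33 tested genes passed an adjusted p of 0.05, 5 higher and 5 lower, or 30.3%, where 8.69% of all 13055 tested genes did (4.17% higher and 4.52% lower). In BrM2 against Par, 5 of 33 passed (15.2%, with 3 higher and 2 lower), near the 13.3% of all genes (6.25% higher and 7.02% lower). No co-receptor, secreted inhibitor, R-spondin module gene or intracellular gene passed there. DESeq2 called 10 of the 33 in BrM2 against Par, beside 19.3% of all genes. In BrM2 against LM2, 7 of 33 passed (21.2%, with 4 higher and 3 lower), beside 8.1% of all genes (4.11% higher and 3.99% lower). The median log2 fold change of the 33 genes was -0.12, -0.15 and 0.03 in these comparisons, and that of all genes 0.01, -0.02 and -0.03. The first and second comparison share the Par libraries. As these are bulk cultures, fewer cells of a kind and less RNA per cell cannot be told apart.

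Sizes of change can be set beside those of all genes in the same way. The median absolute log2 fold change was 0.77 for LM2 against Par, 0.48 for BrM2 against Par and 0.57 for BrM2 against LM2, compared with 0.32, 0.36 and 0.35 over all genes. With the replicate block, 16 of the 33 genes passed in each comparison, beside 34.5%, 42.7% and 37.5% of all genes. Without replicate 1 of every line, 16, 14 and 13 passed, beside 33.1%, 40.4% and 32.6% of all genes. Libraries of the compared lines did not overlap for 17 of the 33 genes in LM2 against Par (beside 25.2% of all genes), 14 in BrM2 against Par (beside 31.3%) and 13 in BrM2 against LM2 (beside 23.1%). The plot of fold changes by class shows the 33 genes.

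**Figure D1:**
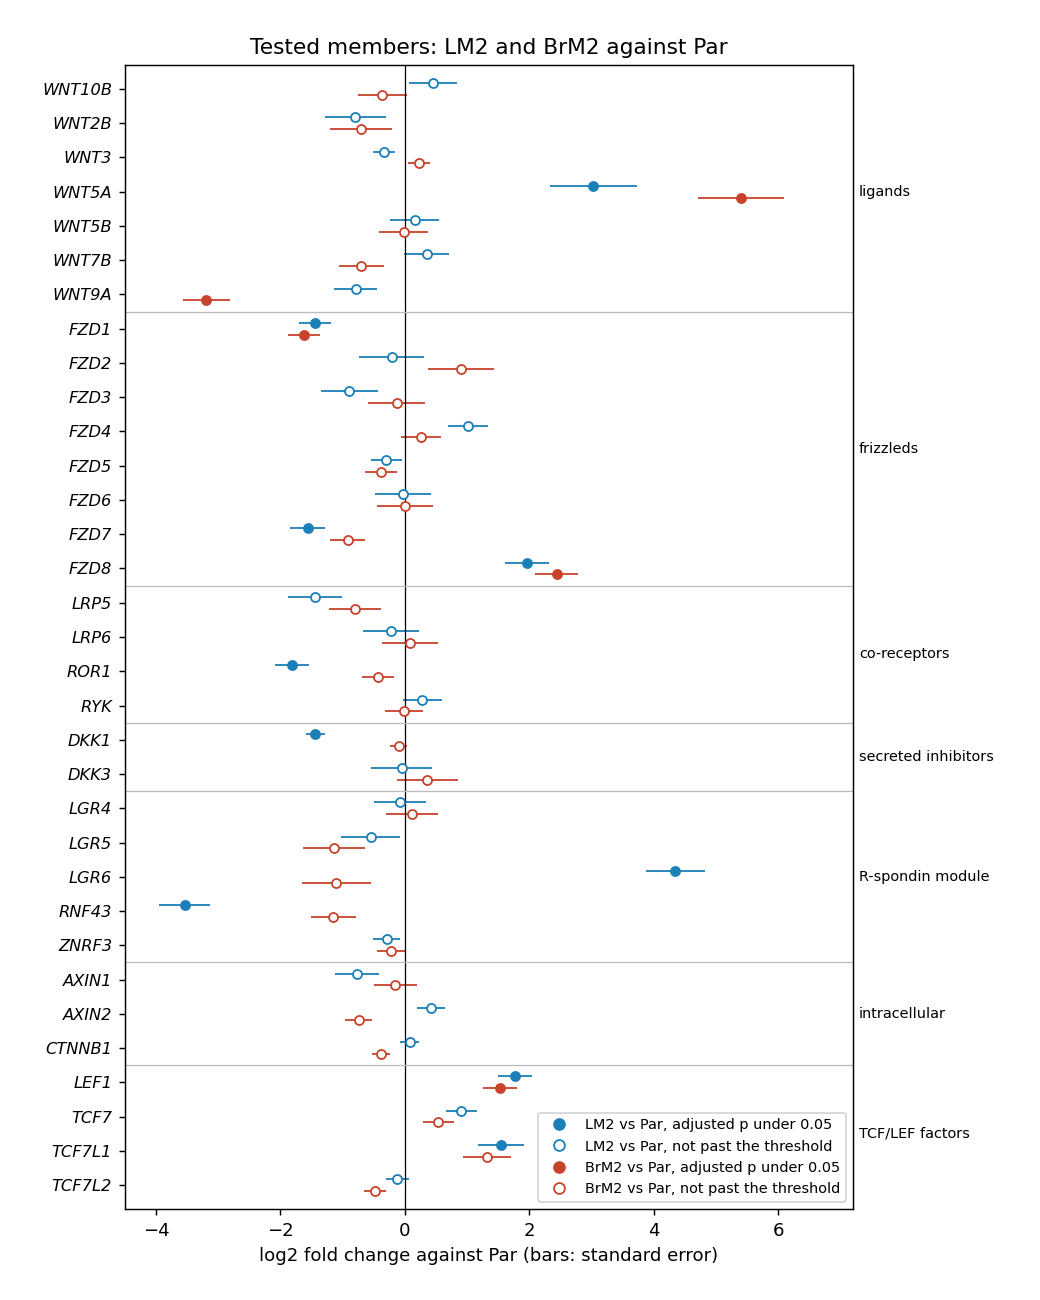
Log2 fold change against Par (horizontal axis) of the 33 tested genes, grouped by role, for LM2 in blue and BrM2 in red. Bars are standard errors of the edgeR fit on 3 libraries per line and filled points passed an adjusted p of 0.05. WNT5A (5.41 in BrM2) and LGR6 (4.35 in LM2) lie farthest to the right and RNF43 (-3.54 in LM2) and WNT9A (-3.19 in BrM2) farthest to the left.

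Promoter windows from RefSeq (GRCh38.p14), the 250 bases before the start, were found for 43 of the 61 genes. Those of 4 genes that changed are shown. Of the 10 called genes with a window, 3 hold the core letters bound by TCF/LEF factors (CTTTGA or CTTTGT, searched on both strands). All 3 are among the 4 shown, so the 4 are not a neutral sample. The window of LEF1 holds neither. It lies inside the gene, which extends to 108168932 on chr4, and so precedes an internal start. No window before the outer end of LEF1 is given here. Capitals mark the core letters, and TCAAAG is CTTTGA read on the other strand.
DKK1, chr10:52314031-52314280, plus strand: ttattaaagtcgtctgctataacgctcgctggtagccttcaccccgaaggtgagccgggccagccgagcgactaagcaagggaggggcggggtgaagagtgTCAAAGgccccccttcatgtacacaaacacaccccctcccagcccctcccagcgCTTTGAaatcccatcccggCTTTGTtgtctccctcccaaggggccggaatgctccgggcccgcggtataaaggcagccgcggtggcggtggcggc
FZD1, chr7:91264183-91264432, plus strand: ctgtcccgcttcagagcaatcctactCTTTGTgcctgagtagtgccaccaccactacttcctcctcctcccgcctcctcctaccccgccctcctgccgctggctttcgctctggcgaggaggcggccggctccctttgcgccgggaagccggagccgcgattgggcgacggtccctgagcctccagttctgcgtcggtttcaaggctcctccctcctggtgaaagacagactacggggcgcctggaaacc
RNF43, chr17:58417535-58417784, minus strand: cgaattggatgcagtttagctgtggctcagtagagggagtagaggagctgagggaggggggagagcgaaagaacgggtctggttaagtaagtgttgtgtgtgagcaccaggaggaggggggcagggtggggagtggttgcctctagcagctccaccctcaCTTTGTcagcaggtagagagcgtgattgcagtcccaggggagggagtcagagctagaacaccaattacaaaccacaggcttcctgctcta
LEF1, chr4:108166302-108166551, minus strand: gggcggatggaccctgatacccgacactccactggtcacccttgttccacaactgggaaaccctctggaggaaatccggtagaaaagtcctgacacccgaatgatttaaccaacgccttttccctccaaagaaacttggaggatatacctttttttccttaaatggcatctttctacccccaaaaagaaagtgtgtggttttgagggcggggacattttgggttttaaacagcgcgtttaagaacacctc
In DKK1 the letters begin 149, 95 and 76 bases before the start, in FZD1 224 and in RNF43 90. Of the 14 starts of the 10 called genes with a window, 4 (28.6%), from 3 genes, held such letters, and 22.8% of all 35116 promoter windows did. The AP-1 letters TGANTCA (N is any base, both strands) were in 1 of the 14, a further start of RNF43 47 bases before it, and in 6.57% of all. A match describes letters only, not a bound site, and a window without one says nothing of the factor.

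WNT5A was the ligand that differed most. It had 0, 3 and 7 counts in the Par libraries, 17, 30 and 44 in LM2, and 47, 189 and 165 in BrM2. These counts correspond to 0, 0.145 and 0.275 CPM in Par, 0.845, 1.22 and 1.69 CPM in LM2, and 3.47, 8.34 and 7.91 CPM in BrM2. The 3 lines did not overlap, Par lying lowest and BrM2 highest. Mean CPM was 46.9-fold higher in BrM2 than in Par, with a log2 fold change of 5.41 ± 0.69 (SE; edgeR adjusted p = 0.0012). LM2 exceeded Par by 3.03 ± 0.70 on the log2 scale (edgeR adjusted p = 0.03), and BrM2 exceeded LM2 by 2.39 ± 0.55 (edgeR adjusted p = 0.03). With so few counts in Par, the sizes of both differences from Par are imprecise. WNT5A also passed the filter through BrM2 alone, the line where it was highest. The BrM2 difference from Par passed in all 9 fits that left out 1 library. The LM2 difference did not pass without LM2 replicate 2 or 3, Par replicate 1 or 2, or BrM2 replicate 3, with an edgeR adjusted p of 0.018 to 0.12 over the 9 fits. For BrM2 against LM2, the call was lost without BrM2 replicate 2 or 3, any LM2 replicate, or Par replicate 2, and the edgeR adjusted p ran from 0.015 to 0.13. With the replicate block these p were 0.00046 and 0.00011.

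The genes whose log2 CPM followed that of WNT5A most closely over the 9 libraries were NBPF15 (Pearson r = 0.997), TENM3 (0.996), RNF144B (0.992), PDE1C (0.991) and ENSG00000276256 (0.99). The 9 points share 3 lines and 3 replicate numbers, so these values describe the likeness of pattern only.

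WNT9A, a ligand known from joint and blood cell development, went the other way. Its level was 21.5, 17.8 and 16.5 CPM in Par, 11.5, 10.8 and 10.1 CPM in LM2, and 2.95, 0.927 and 2.3 CPM in BrM2. No library of one line overlapped with another line. Mean CPM in BrM2 was 9.03-fold lower than in Par, a log2 fold change of -3.19 ± 0.38 (edgeR adjusted p = 0.00085), and 5.24-fold lower than in LM2 (log2 fold change -2.41 ± 0.38, edgeR adjusted p = 0.0047). The LM2 difference from Par, -0.79 ± 0.35 on the log2 scale, did not pass (edgeR adjusted p = 0.25) and passed with the replicate block (adjusted p = 0.023).

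WNT7B, a ligand needed for lung and brain vessel development, had the highest level per exon length of any ligand in every line. In CPM it stood at 48.8, 47 and 26.2 in Par, 62.5, 48.8 and 44.1 in LM2, and 37.8, 16.5 and 20.8 in BrM2. BrM2 lay below LM2 in every library and overlapped with Par. The log2 difference between BrM2 and LM2 was -1.05 ± 0.36 (edgeR adjusted p = 0.13, and 0.0022 with the replicate block), and without BrM2 replicate 1 it was -1.48 with an adjusted p of 0.033. Against Par, BrM2 differed by -0.70 ± 0.36 (edgeR adjusted p = 0.27, and 0.016 with the block).

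Per kilobase of exon, WNT7B made up 39.5% ± 6.91 (SD, n = 3) of the summed ligand level in Par, 49.3% ± 1.42 in LM2 and 34.7% ± 6.17 in BrM2. The share of WNT9A was 23.5% ± 2.01 in Par, 13.2% ± 1.56 in LM2 and 3.64% ± 1.41 in BrM2. WNT5A reached 7.44% ± 4.16 of the ligand sum in BrM2. The ligand sum itself was 20 ± 3.95 CPM per kilobase in Par, 20.7 ± 3.85 in LM2 and 13.8 ± 3.75 in BrM2, with Par overlapping with both sub-populations. WNT5B and WNT3 supplied most of the rest, and in BrM2 they held 28.6% ± 2.65 and 19.8% ± 4.12. The stacked plot shows these mixtures.

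**Figure D2:**
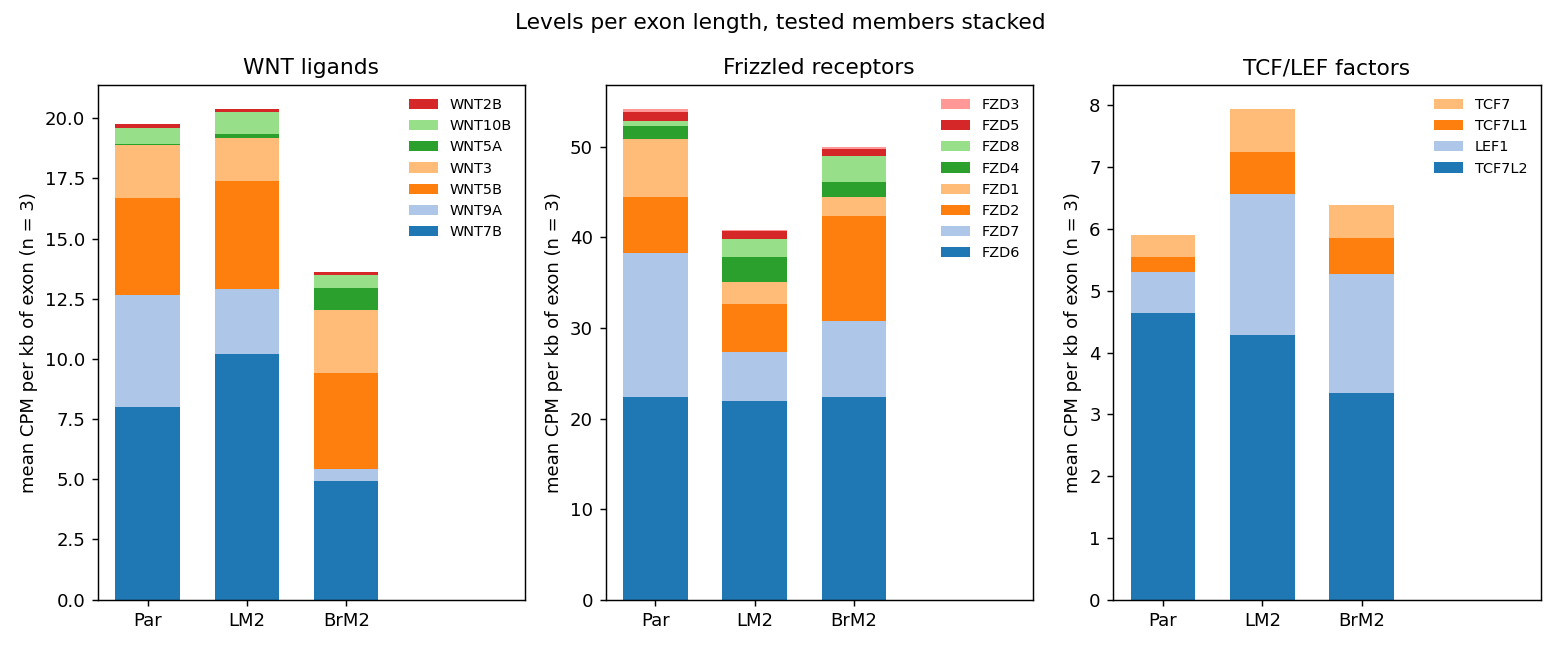
Mean level in CPM per kilobase of exon (vertical axis, n = 3 libraries per line) of the tested ligands, frizzled receptors and TCF/LEF factors in Par, LM2 and BrM2, with the genes stacked. In the ligand panel the WNT9A layer is 23.5% of the sum in Par and 3.64% in BrM2. In the TCF/LEF panel the LEF1 layer is 11.4% in Par, 29% in LM2 and 30.3% in BrM2.

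Among the frizzled receptors, FZD1 was lower and FZD8 higher in both sub-populations than in Par, and FZD7 was lower in LM2. FZD1, whose promoter letters are printed above, had 36.9, 52.1 and 44.6 CPM in Par, 13.4, 17.7 and 18 CPM in LM2, and 17.9, 10.3 and 15.3 CPM in BrM2. Every Par library lay above every library of LM2 and of BrM2. The log2 fold change was -1.44 ± 0.26 in LM2 (edgeR adjusted p = 0.0093) and -1.62 ± 0.26 in BrM2 (edgeR adjusted p = 0.0039), which is 2.72-fold and 3.07-fold lower in mean CPM. LM2 and BrM2 overlapped.

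FZD7, a close relative of FZD1 with roles in stem cells, had 93.1, 76 and 49.8 CPM in Par, 26.7, 25 and 22.7 CPM in LM2, and 50.7, 32.9 and 32 CPM in BrM2. LM2 was below both other lines in every library, and BrM2 overlapped with Par. The fall in LM2 was -1.56 ± 0.28 on the log2 scale (edgeR adjusted p = 0.0095). In BrM2 the difference from Par was -0.92 ± 0.28 (edgeR adjusted p = 0.064, and 0.00075 with the replicate block). Without BrM2 replicate 1 it was -1.17 and without Par replicate 3 it was -1.13, and both passed, with adjusted p of 0.029 and 0.037. BrM2 against LM2 gave 0.63 ± 0.28 (edgeR adjusted p = 0.24, and 0.011 with the block).

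FZD8 belongs to another branch of the frizzled family. Its level was 2.42, 2.52 and 1.34 CPM in Par, 10.5, 7.51 and 6.4 CPM in LM2, and 15.3, 9.31 and 9.49 CPM in BrM2. All libraries of LM2 and BrM2 exceeded those of Par. FZD8 rose by 1.96 ± 0.35 on the log2 scale in LM2 (edgeR adjusted p = 0.0083) and 2.44 ± 0.35 in BrM2 (edgeR adjusted p = 0.0021), or 3.90-fold and 5.44-fold in mean CPM. BrM2 and LM2 overlapped, with a difference of 0.48 ± 0.33 (edgeR adjusted p = 0.48).

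FZD6, which is known to restrain the beta-catenin branch, had the highest level per length of the receptors, 22.4 ± 5.23 CPM per kilobase in Par, 21.9 ± 10.2 in LM2 and 22.4 ± 9.45 in BrM2 (SD, n = 3). The log2 differences of FZD6 between lines were -0.03 in LM2 against Par and 0.03 in BrM2 against LM2. It held 41.4% ± 9.92 of the summed frizzled level in Par, 51.4% ± 15.5 in LM2 and 45.5% ± 20.5 in BrM2. The share of FZD7 was 29.5% ± 9.28 in Par, 13.9% ± 4.52 in LM2 and 16.7% ± 3.68 in BrM2. FZD1 held 11.9% ± 1.28 in Par and 5.88% ± 0.466 and 4.19% ± 0.988 in LM2 and BrM2.

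The co-receptor ROR1, a receptor tyrosine kinase family member that binds WNT5A, was lower in LM2. It had 66.5, 69.6 and 70.1 CPM in Par, 14.2, 23.9 and 20.6 CPM in LM2, and 37.6, 65.3 and 49.7 CPM in BrM2. The lines did not overlap, LM2 being lowest and Par highest. Mean CPM in LM2 was 3.51-fold below Par, with a log2 fold change of -1.81 ± 0.27 (edgeR adjusted p = 0.0034). BrM2 was 1.38 ± 0.26 above LM2 on the log2 scale (edgeR adjusted p = 0.013), a call lost only without BrM2 replicate 3 among the fits that left out 1 library, where the highest adjusted p was 0.05 after rounding. BrM2 differed from Par by -0.43 ± 0.26 (edgeR adjusted p = 0.37, and 0.026 with the replicate block). ROR2, the other ROR receptor, had at most 3 counts in every library.

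LRP5 and LRP6 are the co-receptors that pass the signal on to beta-catenin. LRP5 had 239, 304 and 187 CPM in Par, 125, 81.3 and 62.6 CPM in LM2, and 221, 68.6 and 130 CPM in BrM2. LM2 lay below Par in every library, and BrM2 overlapped with both. The log2 difference in LM2 was -1.44 ± 0.43 and did not pass (edgeR adjusted p = 0.078), but passed with the replicate block (adjusted p = 0.0028) and in the fits without BrM2 replicate 1 or 2, the lowest adjusted p there being 0.036. BrM2 differed from Par by -0.80 ± 0.42 (edgeR adjusted p = 0.3, and 0.032 with the block). LRP6 had 39.8, 80.8 and 83.9 CPM in Par, 31.8, 66.5 and 76.8 CPM in LM2, and 37.5, 95.3 and 85.4 CPM in BrM2. All 3 lines overlapped for LRP6, and its log2 differences from Par were -0.22 ± 0.45 in LM2 and 0.09 ± 0.45 in BrM2 (edgeR adjusted p = 0.88 and 0.95). In each line, replicate 1 had the lowest LRP6 value.

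DKK1, the secreted protein that binds LRP5 and LRP6 and blocks them, was lower in LM2 than in Par and BrM2. Per kilobase of exon it was the most abundant secreted inhibitor in every line. Its level was 316, 308 and 353 CPM in Par, 126, 115 and 119 CPM in LM2, and 313, 296 and 301 CPM in BrM2. LM2 was separate from both other lines, while Par and BrM2 overlapped. The log2 fold change in LM2 was -1.44 ± 0.15 (edgeR adjusted p = 0.00055), a 2.72-fold lower mean CPM, and BrM2 was 1.34 ± 0.15 above LM2 (edgeR adjusted p = 0.00077). The difference between BrM2 and Par was -0.10 ± 0.14 (edgeR adjusted p = 0.75). Both calls held in all 9 fits that left out 1 library. The counted strand was not stated, and 10.2% of DKK1 exon length overlaps PRKG1-AS1 on the other strand, which averaged 38.7 counts.

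Of the other secreted inhibitors only DKK3 passed the filter. DKK2, DKK4, SFRP2, SFRP4 and WIF1 had at most 3 counts in every library, and SFRP5 at most 4. SFRP1, which binds WNT ligands directly, had 19, 23 and 18 counts in Par, 1, 13 and 6 in LM2, and 10, 18 and 10 in BrM2. LM2 lay below Par in every library. In the fit without a filter its LM2 difference from Par had an edgeR adjusted p of 0.071. SFRP1 is outside the rule for named genes and was chosen after its values were seen.

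In the R-spondin module the receptor gene LGR6 was high in LM2 and near 0 in the other lines. It had 11, 14 and 14 counts in Par, 360, 256 and 230 in LM2, and 8, 4 and 3 in BrM2. In CPM these were 0.578, 0.678 and 0.55 in Par, 17.9, 10.4 and 8.81 in LM2, and 0.591, 0.177 and 0.144 in BrM2. Every LM2 library was above every other library, and Par and BrM2 overlapped. Mean CPM in LM2 was 20.6-fold that of Par (log2 fold change 4.35 ± 0.47, edgeR adjusted p = 0.00073), and BrM2 was 5.45 ± 0.52 lower than LM2 on the log2 scale (edgeR adjusted p = 0.00042). BrM2 against Par gave -1.10 ± 0.55 (edgeR adjusted p = 0.27). Both LM2 calls held in all 9 fits that left out 1 library. LGR6 passed the filter through LM2 alone, the line where it was high, and these calls carry that limit.

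RNF43, which removes frizzled receptors from the membrane, was lowest in LM2. It had 6.93, 3.1 and 4.91 CPM in Par, 0.397, 0.326 and 0.536 CPM in LM2, and 2.21, 2.87 and 1.63 CPM in BrM2. The 3 lines did not overlap. Mean CPM was 11.9-fold lower in LM2 than in Par, a log2 fold change of -3.54 ± 0.41 (edgeR adjusted p = 0.001), and BrM2 was 2.39 ± 0.41 above LM2 (edgeR adjusted p = 0.0076). In BrM2 the difference from Par was -1.15 ± 0.36 (edgeR adjusted p = 0.072, and 0.016 with the replicate block). ZNRF3, its close homologue, averaged 13.9 ± 2.64 CPM in Par, 11.3 ± 1.21 in LM2 and 12 ± 1.57 in BrM2, with edgeR adjusted p of 0.55, 0.64 and 0.9 in the 3 comparisons.

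RSPO1 and RSPO4 had no counts, RSPO2 at most 1 count and RSPO3 at most 5 counts in any library, so the ligands of the LGR receptors were at or near 0 in all 3 lines. LGR4, the broadly expressed receptor of this family, had the highest level per length among the LGR genes, 9.35 ± 2.33 CPM per kilobase in Par, 8.88 ± 4.09 in LM2 and 10.1 ± 3.63 in BrM2. The plot of levels by library shows the 12 genes that passed in any comparison.

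**Figure D3:**
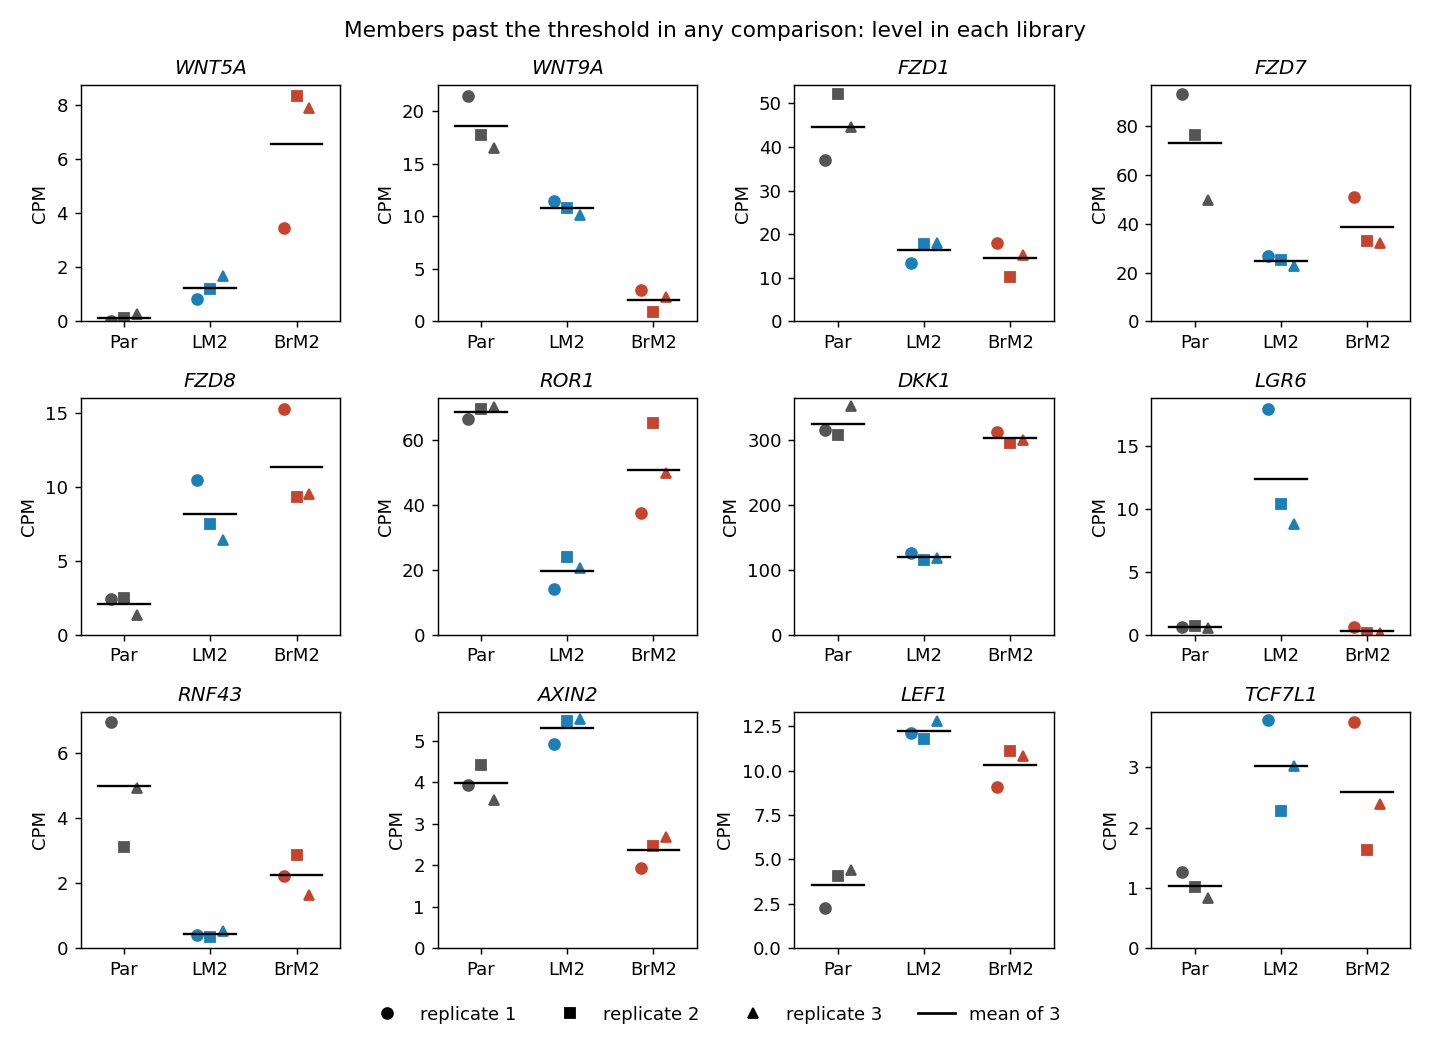
Level in CPM (vertical axis, starting at 0 in each panel) of the 12 genes that passed an adjusted p of 0.05 in any comparison, in each library of Par, LM2 and BrM2. Symbols mark the replicate number and black lines the mean of 3 libraries. DKK1 in LM2 lies between 115 and 126 CPM and in all other libraries at 296 CPM or higher, and LGR6 lies between 8.81 and 17.9 CPM in LM2 and at 0.678 CPM or lower elsewhere.

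CTNNB1, which encodes beta-catenin, was at 663, 678 and 743 CPM in Par, 702, 766 and 737 CPM in LM2, and 502, 570 and 535 CPM in BrM2. BrM2 lay below both other lines in every library. The log2 difference from Par was -0.38 ± 0.15 (edgeR adjusted p = 0.15) and from LM2 -0.46 ± 0.15 (edgeR adjusted p = 0.11), and with the replicate block these had adjusted p of 0.014 and 0.0064. LM2 differed from Par by 0.08 ± 0.15 (edgeR adjusted p = 0.86).

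AXIN2, a scaffold of the destruction complex and a commonly used target gene of beta-catenin, differed between the sub-populations. It had 3.94, 4.4 and 3.58 CPM in Par, 4.92, 5.47 and 5.52 CPM in LM2, and 1.92, 2.47 and 2.68 CPM in BrM2. The lines did not overlap, with LM2 highest and BrM2 lowest. BrM2 was 2.25-fold below LM2 in mean CPM (log2 fold change -1.16 ± 0.22, edgeR adjusted p = 0.013), a call lost without LM2 replicate 2 or 3, where the highest adjusted p was 0.058. Against Par, LM2 gave 0.42 ± 0.22 (edgeR adjusted p = 0.35) and BrM2 -0.74 ± 0.22 (edgeR adjusted p = 0.062, and 0.012 with the replicate block).

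NKD1, an inhibitor of dishevelled that beta-catenin itself induces, was below the filter, with no counts in Par, 6, 9 and 9 in LM2, and 0, 3 and 0 in BrM2. Against a floor of 3 counts in each Par library, its mean CPM in LM2 was at least 2.40-fold higher. In the fit without a filter that difference had an edgeR adjusted p of 0.0083. WNT1 likewise had no counts in Par, 5, 9 and 3 in LM2, and 0, 3 and 1 in BrM2, at least 1.74-fold higher in LM2 than the Par floor (edgeR adjusted p = 0.028 without a filter). NKD1 and WNT1 were also chosen after their values were seen.

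Of the 4 TCF/LEF factors, 3 had higher values in every library of both sub-populations than in any Par library. Of all genes, 11.8% in LM2 and 15.2% in BrM2 lay above Par with no overlap. These shares are for each comparison alone, both use the same Par libraries, and the share above Par in both was not computed. TCF7L1, 1 of the 3, passed the filter only through LM2 and BrM2. LEF1 had 2.26, 4.07 and 4.4 CPM in Par, 12.1, 11.8 and 12.8 CPM in LM2, and 9.08, 11.1 and 10.8 CPM in BrM2. All LM2 and BrM2 libraries exceeded those of Par. The log2 fold change of LEF1 was 1.77 ± 0.27 in LM2 (edgeR adjusted p = 0.0041) and 1.53 ± 0.27 in BrM2 (edgeR adjusted p = 0.0061), which is 3.43-fold and 2.89-fold in mean CPM, and both passed in all 9 fits that left out 1 library.

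TCF7L1, a family member that acts largely as a repressor, had 1.26, 1.02 and 0.825 CPM in Par, 3.78, 2.28 and 3.03 CPM in LM2, and 3.76, 1.63 and 2.4 CPM in BrM2. Neither sub-population overlapped with Par. TCF7L1 exceeded Par by 1.55 ± 0.37 on the log2 scale in LM2 (edgeR adjusted p = 0.034) and 1.32 ± 0.38 in BrM2 (edgeR adjusted p = 0.051, and 0.0029 with the replicate block). Leaving out 1 library, the LM2 call held in 2 of 9 fits and was lost without any Par or LM2 replicate or BrM2 replicate 3, with an edgeR adjusted p of 0.019 to 0.13. The BrM2 difference passed without BrM2 replicate 2 or LM2 replicate 1, the lowest adjusted p being 0.043.

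TCF7, the T cell factor that gave the family its name, had 4.31, 3.44 and 3.22 CPM in Par, 8.94, 5.47 and 6.21 CPM in LM2, and 5.61, 4.72 and 5.56 CPM in BrM2. The sub-populations again lay above Par in every library. The differences were 0.91 ± 0.25 in LM2 (edgeR adjusted p = 0.062, and 0.0035 with the replicate block) and 0.54 ± 0.25 in BrM2 (edgeR adjusted p = 0.24, and 0.034 with the block). Of the exon length of TCF7, 2.08% overlaps SKP1 on the other strand.

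TCF7L2, the factor of this family with the highest level per length, had 33.8, 29.2 and 30.8 CPM in Par, 33.4, 26.3 and 27 CPM in LM2, and 23.4, 23.9 and 20.1 CPM in BrM2. BrM2 was below both other lines, with a log2 difference from Par of -0.48 ± 0.18 (edgeR adjusted p = 0.14, and 0.012 with the replicate block). LM2 differed from Par by -0.12 (edgeR adjusted p = 0.83). TCF7L2 made up 78.6% ± 2.68 of the summed TCF/LEF level per length in Par, 54% ± 1.73 in LM2 and 52.3% ± 2.99 in BrM2. The share of LEF1 was 11.4% ± 3.94 in Par, 29% ± 3.27 in LM2 and 30.3% ± 3.95 in BrM2. The sums were 5.91 ± 0.248, 7.94 ± 0.92 and 6.38 ± 0.253 CPM per kilobase.

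The other 15 tested genes did not pass in any comparison. Their log2 fold changes ran from -0.89 (FZD3) to 1.01 (FZD4) in LM2 against Par, from -1.14 (LGR5) to 0.91 (FZD2) in BrM2 against Par, and from -0.81 (WNT10B) to 1.11 (FZD2) in BrM2 against LM2. The lowest edgeR adjusted p were 0.095, 0.2 and 0.11, and 1, 1 and 2 of the genes had an unadjusted p under 0.05. With the replicate block, 3, 1 and 6 of the 15 passed, where 34.5%, 42.7% and 37.5% of all genes did. FZD4, chosen after its values were seen, was among them in LM2 (adjusted p = 0.00044 with the block), with 8.25, 10.3 and 12.5 CPM in Par and 13.8, 20.6 and 28.1 CPM in LM2. However, 18.9% of FZD4 exon length overlaps PRSS23 on the other strand, which averaged 11319.3 counts.

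In the replicate 1 libraries many of these genes moved together. Of the 33 genes, 28 deviated from replicates 2 and 3 in the same direction in all 3 lines (84.8%, beside 83.1% of all genes tested), 14 of them lower and 14 higher. LRP6 was lower in replicate 1 by 1.05, 1.17 and 1.26 on the log2 scale in Par, LM2 and BrM2. FZD2 was higher by 0.23, 0.77 and 1.74. DKK1, RNF43, LGR6, FZD1 and WNT3 had no common direction.

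**Figure D4:**
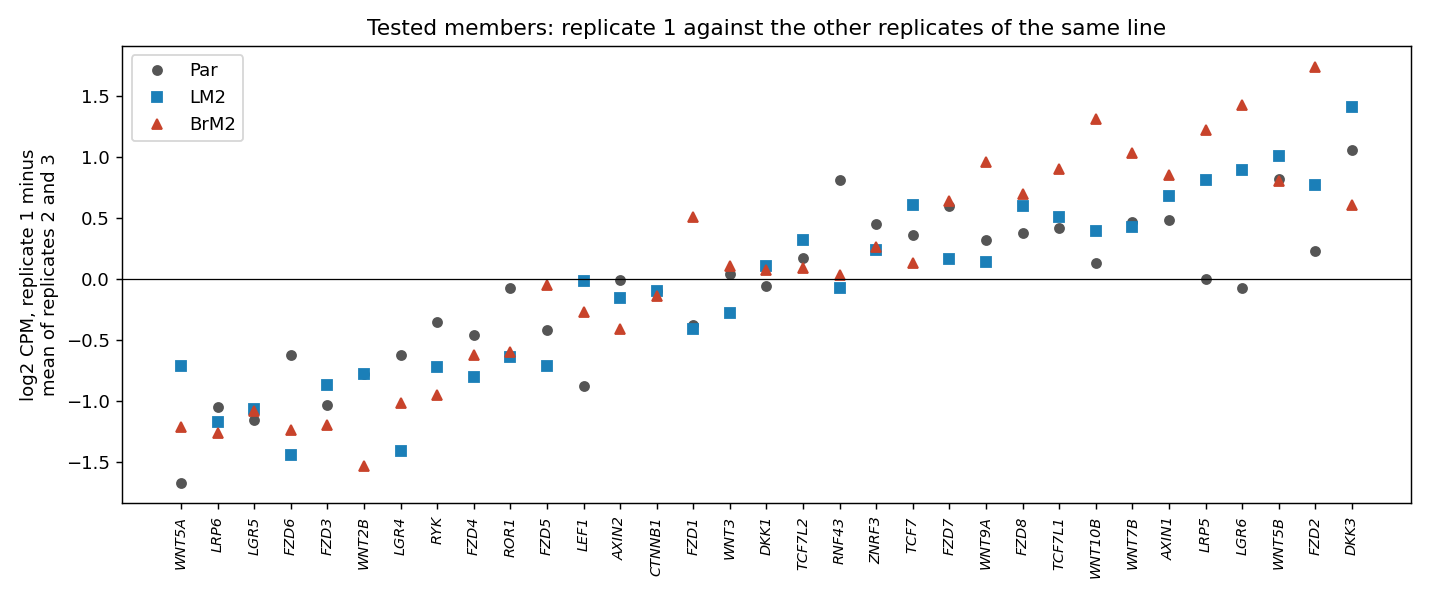
Log2 CPM of replicate 1 minus the mean of replicates 2 and 3 of the same line (vertical axis) for the 33 tested genes, in order of their mean deviation. Points are Par, squares LM2 and triangles BrM2. The symbols of 28 genes lie on 1 side of 0 in all 3 lines, with WNT5A and LRP6 at the low end and FZD2 and DKK3 at the high end.

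Around the 61 genes, 91 other genes of the pathway were examined, of which 72 passed the filter. In LM2 against Par 8 passed the test (4 higher and 4 lower, 11.1%), in BrM2 against Par 19 (8 higher and 11 lower, 26.4%), and in BrM2 against LM2 6 (3 higher and 3 lower, 8.33%), beside the 8.69%, 13.3% and 8.1% of all genes given above. With the replicate block the counts were 30, 35 and 28 (41.7%, 48.6% and 38.9%), near the 34.5%, 42.7% and 37.5% of all genes.

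Outside the cell, SOST, the secreted inhibitor of LRP5 and LRP6 known from bone, was at 4.05, 3.15 and 4.4 CPM in Par, 0.646, 0.0408 and 0.0766 CPM in LM2, and 0.443, 0.132 and 0.192 CPM in BrM2. Neither sub-population overlapped with Par, with log2 fold changes of -3.99 ± 0.75 in LM2 (edgeR adjusted p = 0.011) and -4 ± 0.77 in BrM2 (edgeR adjusted p = 0.009). LM2 held 13, 1 and 2 counts of SOST, and without LM2 replicate 1 its log2 fold change was -5.9, so its size is imprecise. The BrM2 call was lost without BrM2 replicate 2 or 3, with an adjusted p of at most 0.055. PTK7, a co-receptor of the planar cell polarity branch, had 47, 28.3 and 21.5 CPM in Par, 224, 113 and 97.1 CPM in LM2, and 325, 183 and 238 CPM in BrM2. It was higher by 2.17 ± 0.42 in LM2 (edgeR adjusted p = 0.013) and by 2.95 ± 0.43 in BrM2 (edgeR adjusted p = 0.0022) on the log2 scale. Without Par replicate 2 or 3 the LM2 call of PTK7 was lost, with an adjusted p of at most 0.069.

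Of the 19 tested genes of the polarity and calcium branch, 4 passed in LM2 (21.1%, beside 8.69% of all genes) and 7 in BrM2 (36.8%, beside 13.3%) against Par. These 2 comparisons share the Par libraries. In BrM2 against LM2, 2 of the 19 passed (10.5%), near the 8.1% of all genes. The formin DAAM1, which links dishevelled to actin, fell by 1.96 ± 0.42 on the log2 scale in LM2 (edgeR adjusted p = 0.02) and by 2.15 ± 0.42 in BrM2 (edgeR adjusted p = 0.01). Its LM2 call was lost without LM2 replicate 2 or 3 or Par replicate 2 or 3, with an adjusted p of at most 0.072. The related formin DAAM2 had 1.94, 1.98 and 1.65 CPM in Par, 4.27, 1.51 and 2.07 CPM in LM2, and 19.7, 13.9 and 15 CPM in BrM2. DAAM2 was thus raised in BrM2, by 3.12 ± 0.39 over Par (edgeR adjusted p = 0.0011) and 2.63 ± 0.38 over LM2 (edgeR adjusted p = 0.0033), while 5.67% of its exon length overlaps MOCS1 on the other strand. PRICKLE2, a cytoplasmic polarity protein, fell by 1.88 ± 0.29 in BrM2 against Par (edgeR adjusted p = 0.0032). In LM2 it fell by 1.13 ± 0.29 (edgeR adjusted p = 0.042), a call that held in 2 of the 9 fits leaving out 1 library. The polarity cadherin CELSR1 rose by 1.40 ± 0.28 in BrM2 (edgeR adjusted p = 0.011), a call lost without Par replicate 3 (adjusted p = 0.053). In LM2 it rose by 1.25 ± 0.28 (edgeR adjusted p = 0.025), a call that held in 3 of the 9 fits. NFATC1, a calcium-dependent factor, rose by 1.64 ± 0.38 in LM2 (edgeR adjusted p = 0.029), and its call was lost in 5 of the 9 fits, those without any LM2 replicate or Par replicate 2 or 3 (adjusted p at most 0.13). NFATC2 was 1.08 ± 0.17 higher in BrM2 than in LM2 (edgeR adjusted p = 0.0054).

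Inside the cell, TNKS, the tankyrase that marks AXIN proteins for breakdown, was 1.36 ± 0.24 lower in BrM2 than in LM2 on the log2 scale (edgeR adjusted p = 0.0089). BCL9, which joins beta-catenin to its nuclear co-factors, was 1.09 ± 0.22 higher in BrM2 than in LM2 (edgeR adjusted p = 0.015), a call lost without BrM2 replicate 2 or 3 or LM2 replicate 2 or 3 (adjusted p at most 0.077).

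Among 14 tested target genes of the beta-catenin branch, 2 passed in LM2 against Par (14.3%, beside 8.69% of all genes), 1 higher and 1 lower. In BrM2 against Par 5 passed (35.7%, beside 13.3%), 1 higher and 4 lower. In BrM2 against LM2 2 passed (14.3%, beside 8.1%), 0 higher and 2 lower. EDN1, which encodes endothelin, was 1.36 ± 0.23 higher in LM2 (edgeR adjusted p = 0.0062) and 1.21 ± 0.23 higher in BrM2 (edgeR adjusted p = 0.0079). BMP4, a ligand of the TGF-beta superfamily, had 399, 387 and 325 CPM in Par. It had 145, 147 and 138 CPM in LM2, and 171, 101 and 129 CPM in BrM2. BMP4 fell by 1.37 ± 0.21 in LM2 (edgeR adjusted p = 0.0046) and by 1.47 ± 0.22 in BrM2 (edgeR adjusted p = 0.0023). FN1, which encodes fibronectin, was 1.96 ± 0.17 lower in BrM2 than in LM2 (edgeR adjusted p = 0.00027), and TNFRSF19, a receptor of the TNF family, was 1.81 ± 0.22 lower (edgeR adjusted p = 0.0015). FN1 is also among the 4 mesenchymal markers of the line. Called target genes of this list therefore moved in both directions against Par. In LM2 this rests on 1 gene each way, EDN1 and BMP4. With the replicate block, 4 of the 14 passed higher and 1 lower in LM2. The 14 leave out AXIN2 and NKD1, described above, and targets below the filter. Of these, CCN4 had 0, 0 and 2 counts in Par and 17, 23 and 36 in LM2. ID2 had 38, 25 and 14 counts in Par and 4, 4 and 6 in LM2, and CCN5 was also lower in LM2. CCN4, ID2 and CCN5 were chosen after their values were seen.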

How the data were processed

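Libraries of stranded mRNA were read from both ends, and the authors aligned and counted them per gene with STAR 2.7.0 on hg38. The raw counts they deposited, without normalisation, are the values used here. The table had 58887 rows; 3 identifiers stood under 2 symbols with identical counts and were kept once. The deposited DESeq2 table of the authors (log2 fold change and adjusted p-value per gene) was not used, and which strand was counted is not given in the sources used here. The members and the gene lists were chosen with earlier results of these data known.

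Genes were kept where their largest normalised count exceeded 47.15, a limit found after HTSFilter (100 limits from 1 to 200, loess span 0.3), which left 13055 genes with 99.64% to 99.78% of the counts. Differences were tested 2-sided with edgeR 4.0.16 (quasi-likelihood, TMM, R 4.3.3), with the 3 lines as groups over 9 libraries, and p-values were adjusted by Benjamini-Hochberg over all genes tested in a comparison. Standard errors follow from the F statistic. CPM use the TMM library sizes. At the Par depth, 3 counts, the floor in each library, correspond to 0.14 CPM, and this floor covers counting error only. The standard errors of the fit include the spread between libraries. Exon lengths came from GENCODE (lifted to GRCh37, all 61 genes) and promoter windows from RefSeq. The code was tested on simulated data.

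The replicate numbers are from the sample titles, and the methods describe the replicates only as different passages. Same-numbered libraries correlated at 0.23 to 0.90 in all 9 pairs and were taken as paired. LM2 replicate 3 correlated at 0.801 with BrM2 replicate 2 and at 0.746 with BrM2 replicate 3. The values therefore set replicate 1 apart but do not show that replicates 2 and 3 pair by number. The block p-values rest on that pairing. The common dispersion was 0.11, and 0.021 with the block. Alternatives were DESeq2 1.42.0, its size factors in edgeR, no filter, the replicate block and leaving out replicates or libraries.

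Named are genes that passed in any comparison, genes that passed with the block with no overlap of libraries and a log2 fold change there of at least 1 in size, CTNNB1, the TCF/LEF genes, AXIN2, LRP5 and LRP6, up to 3 rises and 3 falls per comparison among the other pathway genes, and the 5 genes most like WNT5A. Where a gene was chosen after its values were seen, the text says so. FZD6, ROR2, ZNRF3, LGR4, the R-spondins and the secreted inhibitors other than DKK1 were also chosen after their values were seen. Figures were drawn with matplotlib 3.10.9 and tables joined with pandas 2.3.3 in Python 3.11.15.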

Additional observations from a re-analysis of the deposited data

Results flagged for a closer look

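LGR6 is listed because its fitted changes from Par had opposite signs, 4.35 in LM2 and -1.10 in BrM2 on the log2 scale, and differed in the test. The difference between BrM2 and LM2 itself, tested with edgeR, was -5.45 (adjusted p = 0.00042), with each LM2 library above each BrM2 library. The BrM2 libraries overlapped with Par, and the BrM2 change from Par did not pass (adjusted p = 0.27) and rests on 8, 4 and 3 counts in BrM2. The difference between BrM2 and LM2 passed in DESeq2 and with the replicate block, and did not pass in edgeR without replicate 2 of every line. LGR6 entered the test through LM2 alone, the line where it was high.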

How the results depend on the processing

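With the replicate block, 16 members passed in each comparison, and 30, 35 and 28 of the other pathway genes in LM2 vs Par, BrM2 vs Par and BrM2 vs LM2, beside 34.5%, 42.7% and 37.5% of all genes. DESeq2 called 10 members in BrM2 vs Par (beside 19.3% of all genes) and 10 other pathway genes in BrM2 vs LM2 (beside 14% of all genes), where edgeR without a filter also called 10 (beside 4.25%). The block took no call away from a named gene. When replicates or single libraries were left out, the members passing ranged from 0 to 16 in LM2 vs Par, 1 to 14 in BrM2 vs Par and 0 to 13 in BrM2 vs LM2, and the other pathway genes from 0 to 27, 0 to 38 and 0 to 21. The highest counts came without replicate 1 of every line. The lowest came without replicate 2, where edgeR called 0 members both for LM2 vs Par and for BrM2 vs LM2 (11 and 6 at an unadjusted p under 0.05) and 0 other pathway genes passed in any comparison (7, 17 and 6 at an unadjusted p under 0.05). Without replicate 3, 1 member passed in each comparison and 0 other pathway genes (8, 14 and 6 at an unadjusted p under 0.05). Of all genes, 0.406% to 1.22% passed without replicate 2 and 0.866% to 2.1% without replicate 3, with 2 libraries per line. Single libraries moved counts of the other pathway genes too. In LM2 vs Par these were 3 without Par replicate 2 or 3, 4 without LM2 replicate 2 and 5 without LM2 replicate 3. In BrM2 vs Par they were 12 without Par replicate 1, 11 without Par replicate 2 or 3, and 8 without BrM2 replicate 2 or 3. The cause was not tested.

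Directions that turned were all of differences that did not pass. LRP6 in BrM2 vs Par (0.09) was -0.18 without Par replicate 1, -0.14 and -0.04 without BrM2 replicate 2 and 3, and -0.03 without replicate 2, with 0.41 at the other end without BrM2 replicate 1. In LM2 vs Par it ranged from -0.5 without Par replicate 1 to 0.07 without LM2 replicate 1. FZD1 in BrM2 vs LM2 was 0.01 without BrM2 replicate 2, 0.08 without replicate 2 and -0.47 without replicate 1. TCF7L1 in BrM2 vs LM2 was 0 without BrM2 replicate 2 and -0.59 without BrM2 replicate 1, and DKK1 in BrM2 vs Par was 0.02 without replicate 3. Another scaling, by DESeq2 size factors, moved the median of all genes by less than 0.1 on the log2 scale changed no direction and took away the call of BCL9 in BrM2 vs Par. Depth limits the members with few counts, of which WNT5A in Par, RNF43 in LM2 and LGR6 in BrM2 are the main ones.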
